A study of Mus musculus with 160 samples.

Results

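The genes described here are 9 regulators of stem cell self-renewal, Mecom, Prdm16, Mllt3, Hlf, Hmga2, Msi2, Igf2bp2, Lin28b and Procr. They were chosen by name, as the rows of the count table whose Ensembl identifier carries one of these symbols in GENCODE release M21, and all 9 were found among 46078 genes. RNA was sequenced from pools of 20 cells sorted from the aorta-gonads-mesonephros (AGM) region, the embryonic tissue in which the first hematopoietic stem cells (HSCs) arise. Every embryo was Gata3-GFP +/-, carrying the GFP knock-in at Gata3, so the GFP- pools shared this allele with the GFP+ pools. Each of 4 cell types was split into a Gata3-GFP+ and a Gata3-GFP- population, which gave 8 populations. Endothelial cells (ECs, Cdh5+ CD41- CD45-) and hematopoietic cells (HCs) came from E10.5 embryos. The submitters' sort description gives HCs as CD41+ CD45+. The study's figures join CD41 and CD45 by a slash for HCs, so an HC may carry CD41, CD45 or both. Mesenchymal cells (MCs, Pdgfrb+) and cells of the sympathetic nervous system (SNS, Ngfr+) came from E11.5 embryos. Cells of several embryos were pooled before sorting, and the labels tie no pool of cells to an embryo, so p-values measure the spread between pools, which may be partly technical. The study's methods give far fewer biological replicates than pools, so pools of a population share embryos, and p-values over pools are too small as a measure of differences between embryos. The comparison of GFP+ with GFP- cells asks how the transcriptome of Gata3-expressing ECs and HCs differs from that of their GFP- neighbors.

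HSCs emerge in the AGM when hemogenic endothelial cells of the dorsal aorta undergo an endothelial-to-hematopoietic transition (EHT). The 9 genes act at several levels of stem cell maintenance. Mecom and Prdm16 encode related zinc finger proteins with a PR domain, Mllt3 encodes a YEATS domain subunit of transcription elongation complexes, and Hlf encodes a PAR bZIP transcription factor that marks HSCs. Hmga2 encodes an architectural chromatin protein of fetal cells, Msi2 and Igf2bp2 encode RNA-binding proteins, and Lin28b encodes the RNA-binding protein that blocks maturation of let-7 microRNAs, of which Hmga2 and Igf2bp2 are known targets. Procr encodes the endothelial protein C receptor (EPCR, CD201), a surface marker of endothelium and of HSCs.

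Of 160 pools, 7 failed the quality limits, and the others had 1400824 to 16004756 counts on genes per pool. Labels were checked against the largest sum among the endothelial, hematopoietic, mesenchymal, and joined sympathetic and neural crest marker lists. The labels of all 19 GFP+ EC, 20 GFP- EC, 20 GFP+ HC and 20 GFP- HC pools matched it. The macrophage and megakaryocyte lists, given below for HCs, were not part of this check. In 12 of the pools from E11.5 embryos, the last 3 in column order of each E11.5 population, the markers went against the label. In 3 of 20 GFP+ pools and 3 of 17 GFP- pools labelled MC the sympathetic and neural crest lists were the largest, and in 3 of 18 GFP+ pools and 3 of 19 GFP- pools labelled SNS the mesenchymal list was. The member differences in MCs and SNS are given with and without them. Gata3 itself, a check of the sort, had a median of 78.01 CPM (counts per 1000000 counts of the scaled library) in GFP+ ECs and 10.47 CPM in GFP- ECs, and of 45.1 CPM in GFP+ HCs and 7.03 CPM in GFP- HCs. In the E11.5 pools that matched their label it was at a median of 35.95 CPM in GFP+ and 8.97 CPM in GFP- MCs and of 188 CPM in GFP+ and 39.3 CPM in GFP- SNS. In the 3 GFP+ MC pools against their label it ranged from 16.3 to 82.3 CPM and in the 3 GFP- ones from 122.7 to 395 CPM. In the 3 GFP+ SNS pools against their label it ranged from 9.97 to 24.3 CPM and in the 3 GFP- ones from 44.4 to 50.2 CPM. Within these 12 pools Gata3 thus went against the GFP label. With all passing pools its log2 fold change in MCs was -0.66 (adjusted p = 0.496, edgeR), and without the 12 it was 1.88 (adjusted p = 8.98e-08). In SNS these values were 1.855 (adjusted p = 1.21e-04) and 2.10 (adjusted p = 3.22e-08). In bulk pools, fewer cells that express a gene and less of its RNA per cell cannot be told apart.

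**Figure D1:**
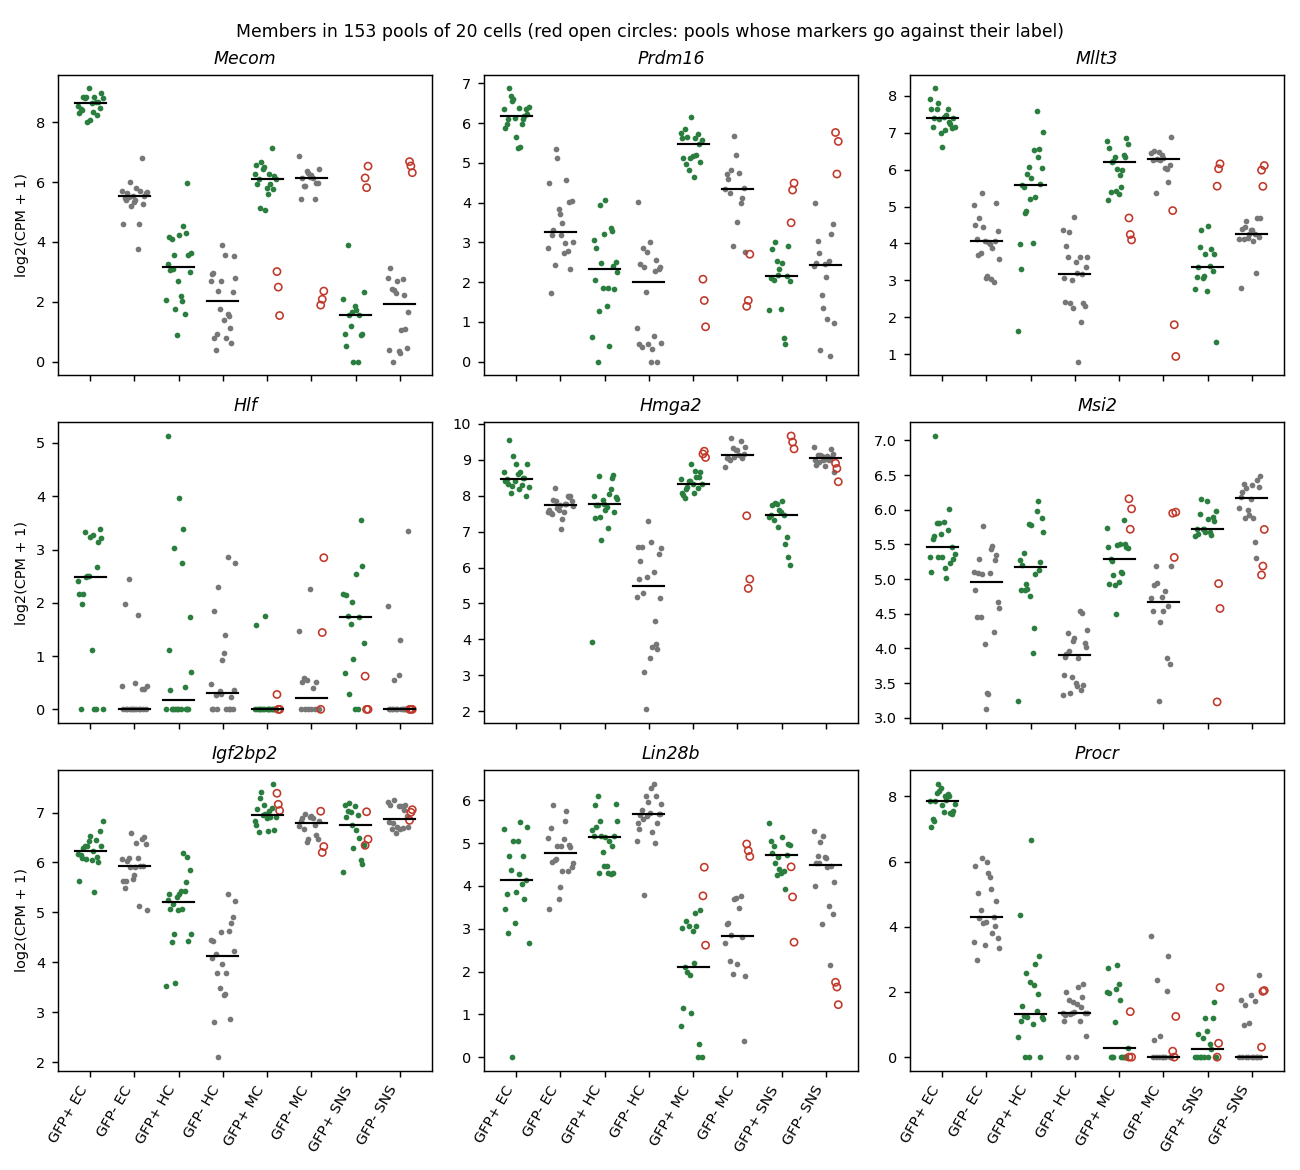
Level of each of the 9 genes as log2(CPM + 1) in all passing pools of 8 populations (GFP+ green, GFP- grey, 1 point per pool), with black lines at the median of the pools whose markers match their label and red open circles for the 12 that go against it. Mecom, Prdm16, Mllt3 and Procr stand apart in GFP+ ECs, where every pool lies above every GFP- EC pool.

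In ECs, 7 of the 9 genes were higher in Gata3-GFP+ pools and none was lower. Mecom, Mllt3, Procr and Prdm16 differed by 5.76-fold to 9.73-fold, and for each of them all 19 GFP+ pools lay above all 20 GFP- pools, which held for 1.69% of all genes tested. Hlf was also higher, from a level near the detection limit, while Hmga2 and Msi2 were higher by 1.76-fold and 1.69-fold. Igf2bp2 and Lin28b did not pass the test. A gene was called where edgeR's quasi-likelihood test gave a Benjamini-Hochberg adjusted p under 0.01 over all genes tested and a log2 fold change beyond 0.1. Of 15073 genes tested in ECs, 19.5% were called higher and 16.5% lower, against 7 higher of 9 here. All 9 passed the filter on low counts, Hlf almost entirely through the GFP+ pools. The study named Mecom and Mllt3 from these same pools, so their direction is not independent evidence.

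Mecom (chromosome 3, 29951296 to 30548008, minus strand, GRCm38), a transcription factor on which HSCs depend, was at 12.5 CPM in the lowest, 45.1 CPM at the median and 111.2 CPM in the highest GFP- EC pool. In GFP+ ECs these values were 259, 400.1 and 564.5 CPM. The lowest GFP+ pool thus held more Mecom RNA in CPM than the highest GFP- pool. The log2 fold change was 3.08 ± 0.15 (SE, n = 19 and 20, adjusted p = 2.87e-20, edgeR). Its paralogue Prdm16 (chromosome 4, 154316125 to 154636873, minus strand) ranged from 2.30 to 39.999 CPM in GFP- ECs, with a median of 8.54, and from 40.5 to 116.6 CPM in GFP+ ECs, with a median of 71.3. Its groups touched without overlapping, since the highest GFP- pool had 39.999 CPM and the lowest GFP+ pool 40.5 CPM. The log2 fold change was 2.53 ± 0.25 (SE, adjusted p = 2.65e-11, edgeR). Small parts of the exons of 3 members, 0.652% for Mecom, 1.17% for Prdm16 and 2.07% for Hmga2, overlap a gene on the opposite strand, and the strand setting of the counting is not given in the sources used here.

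Mllt3 (chromosome 4, 87769925 to 88033364, minus strand), required for self-renewal of human HSCs, ranged from 6.78 to 39.999 CPM in GFP- ECs, with a median of 15.6, and from 97.4 to 294 CPM in GFP+ ECs, with a median of 167. This was the largest difference among the 9, with a log2 fold change of 3.28 ± 0.19 (SE, adjusted p = 2.13e-18, edgeR). Procr (chromosome 2, 155751117 to 155755471, plus strand) ranged from 6.89 to 68.1 CPM in GFP- ECs, with a median of 18.5, and from 133.6 to 334 CPM in GFP+ ECs, with a median of 230 CPM. Both genes separated the GFP+ from the GFP- pools completely. The log2 fold change of Procr was 3.03 ± 0.24 (SE, adjusted p = 2.70e-14, edgeR). Per kilobase of exon, Procr had the highest level of the 9 in GFP+ ECs, a mean of 110.7 CPM per kb, followed by Hmga2 with 56.2, Mecom with 31.6 and Mllt3 with 14.4 CPM per kb. In GFP- ECs this order changed, with Hmga2 first at a mean of 31.2 CPM per kb and Procr at 13.4 CPM per kb.

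The sequences upstream of the RefSeq start sites of these 4 genes are shown because their levels separated the sorted EC populations completely, and GATA3, whose reporter defined the sort, binds GATA motifs. They are given 5′ to 3′ on the gene's strand, for GRCm38.p6, from 250 bases upstream up to the start site or to the first base that GENCODE places in an exon of the same gene. Capitals mark matches on either strand to the GATA letters, which are AGATAA or the same with a first T (TGATAA), a last G (AGATAG) or both (TGATAG), and to the RUNX letters, which are TGTGGT with or without a C in place of the second T (TGCGGT).
Mecom, outer RefSeq start, chr3:30509823-30510009, minus strand: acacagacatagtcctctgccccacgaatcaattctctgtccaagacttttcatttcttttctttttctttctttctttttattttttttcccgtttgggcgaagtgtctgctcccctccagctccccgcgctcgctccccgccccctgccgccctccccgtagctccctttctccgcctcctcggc
Prdm16, chr4:154636874-154637123, minus strand: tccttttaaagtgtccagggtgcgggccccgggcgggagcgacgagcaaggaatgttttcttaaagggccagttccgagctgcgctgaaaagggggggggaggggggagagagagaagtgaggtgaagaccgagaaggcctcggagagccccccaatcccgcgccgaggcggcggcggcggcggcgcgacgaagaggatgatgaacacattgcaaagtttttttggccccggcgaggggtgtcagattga
Mllt3, outer RefSeq start, chr4:88033408-88033657, minus strand: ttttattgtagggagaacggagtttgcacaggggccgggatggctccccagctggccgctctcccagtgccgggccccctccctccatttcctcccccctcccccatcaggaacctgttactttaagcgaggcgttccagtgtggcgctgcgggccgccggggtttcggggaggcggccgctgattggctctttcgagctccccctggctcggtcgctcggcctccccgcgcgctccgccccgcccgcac
Procr, chr2:155750967-155751116, plus strand: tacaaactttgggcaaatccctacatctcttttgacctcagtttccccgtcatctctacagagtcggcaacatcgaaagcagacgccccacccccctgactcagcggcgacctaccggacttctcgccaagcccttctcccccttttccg
None of these 4 stretches holds a match. Examples of GATA matches over the full 250 bases upstream, at the outer Mecom start and the inner Mllt3 start, are shown with 10 bases on either side.
Mecom, outer start, chr3:30509775-30509800: caaatcaaagTGATAAatcgctccaa
Mllt3, inner start, chr4:87806468-87806493: cagtagtgtcAGATAGaagaggctgt
GATA letters occurred in 26.5% and RUNX letters in 18.6% of all 32851 RefSeq windows of 250 bases, and in 5 and 3 of the 13 windows of the 9 genes. The 5 with GATA letters lie at Mecom, Mllt3, Hmga2 and Lin28b, and the Mecom match shown lies in bases that GENCODE places in an exon of Mecom. The 3 with RUNX letters are overlapping windows of Msi2 that hold the same match, so they stand for 1 gene. All 9 genes matched a RefSeq promoter. A match is a description of the letters and not a binding site.

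Hlf (chromosome 11, 90336536 to 90390895, minus strand) was sparse. In GFP- ECs 12 of 20 pools had no count, and the highest had 4.43 CPM. In GFP+ ECs 4 of 19 pools had no count, the median was 4.62 CPM and the highest 9.48 CPM, and 10 of 19 pools lay above every GFP- pool. The log2 fold change was 2.85 ± 0.69 (SE, adjusted p = 7.15e-04, edgeR), and its size is loosely set, since 17 of 20 GFP- pools held at most 3 counts.

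The architectural and RNA-binding genes differed less. Hmga2 (chromosome 10, 120361275 to 120476469, minus strand) ranged from 134.7 to 297 CPM in GFP- ECs, with a median of 211, and from 256 to 749 CPM in GFP+ ECs, with a median of 355. The groups overlapped, although 16 of 19 GFP+ pools lay above every GFP- pool, and the log2 fold change was 0.82 ± 0.10 (SE, adjusted p = 1.14e-08, edgeR). Msi2 (chromosome 11, 88339382 to 88718513, minus strand) had a median of 30.1 CPM in GFP- ECs and 43.04 CPM in GFP+ ECs, with 5 of 19 GFP+ pools above every GFP- pool. Its log2 fold change was 0.76 ± 0.20 (SE, adjusted p = 0.00152, edgeR). Igf2bp2 (chromosome 16, 22059009 to 22163299, minus strand) had medians of 59.9 and 74.01 CPM in GFP- and GFP+ ECs, with a log2 fold change of 0.23 ± 0.12 (SE, adjusted p = 0.117, edgeR). Lin28b (chromosome 10, 45376620 to 45486395, minus strand) was the sole member with a negative value, medians of 26.4 and 16.7 CPM and a log2 fold change of -0.56 ± 0.29 (SE, adjusted p = 0.116, edgeR).

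Some EC pools held the highest value of several genes. The same GFP+ pool was the highest of 19 for 4 of the 9 genes, Prdm16 with 116.6 CPM, Mllt3 with 294 CPM, Hmga2 with 749 CPM and Msi2 with 132.7 CPM. That pool had the fewest counts on genes of all passing pools, 1400824, and the part of depth was not tested. Among the GFP- EC pools, 1 pool was the highest for 3 genes, Prdm16 and Mllt3 with 39.999 CPM each, and Procr with 68.1 CPM. Without any 1 of the 39 EC pools, the same 7 genes were called in every fit.

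**Figure D2:**
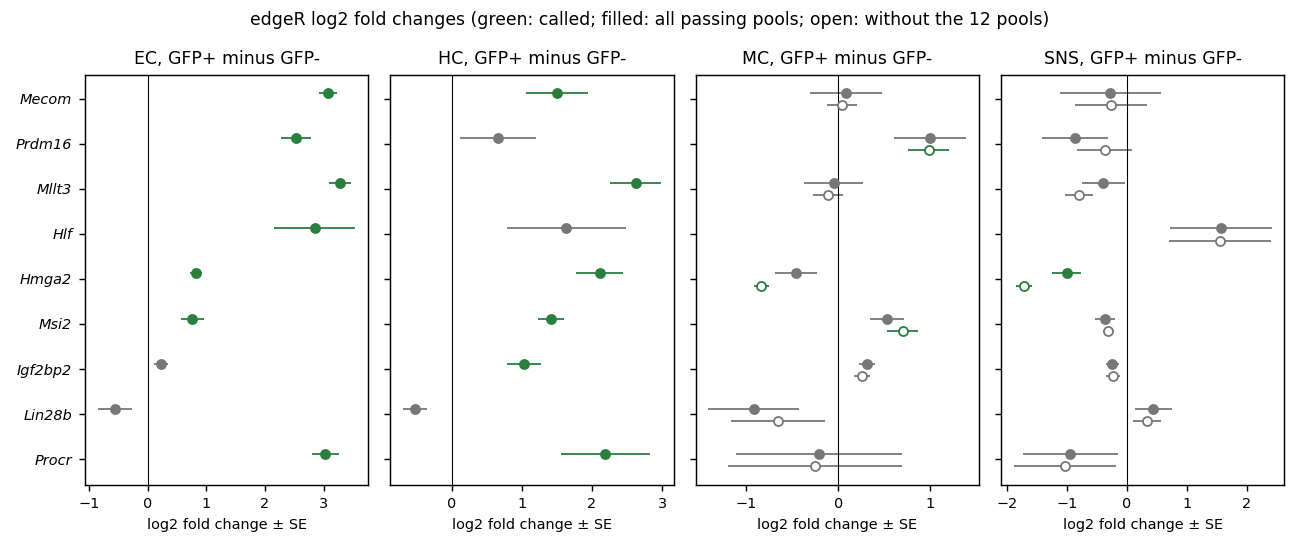
Log2 fold change of GFP+ over GFP- pools ± SE from edgeR for the 9 genes in ECs, HCs, MCs and SNS, with called genes in green, filled circles for all passing pools and open circles without the 12 pools whose markers go against their label. In ECs 7 genes and in HCs 6 genes lie to the right of 0 as calls, while Hmga2 lies to the left of 0 in SNS.

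The scaling of the libraries bore on the smaller EC differences. Fold changes were scaled by the trimmed mean of M-values (TMM), which sets most genes to no change, and the median log2 fold change of all 15073 genes was 0.0996. Scaled by the ERCC spike-in RNAs, added in equal amount to each pool, the median of all genes shifted to -0.596, and 14.3% of the calls were higher in place of 54.1%. Spike-ins took a median of 1.67% of the gene and spike-in counts in GFP+ EC pools and 0.95% in GFP- EC pools. With spike-ins, Mecom, Prdm16, Mllt3, Hlf and Procr stayed called, at 1.99 to 2.73 on the log2 scale. Hmga2 fell to 0.26 (adjusted p = 0.276, edgeR) and Msi2 to 0.31 (adjusted p = 0.356), Igf2bp2 turned to -0.44 (adjusted p = 0.0381), and Lin28b became a call at -1.23 (adjusted p = 0.00214). Relative to the shifted median of all genes, Hmga2 was still at 0.86 and Msi2 at 0.90. The higher values of Hmga2 and Msi2 are therefore relative to the other RNAs of the pool.

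**Figure D3:**
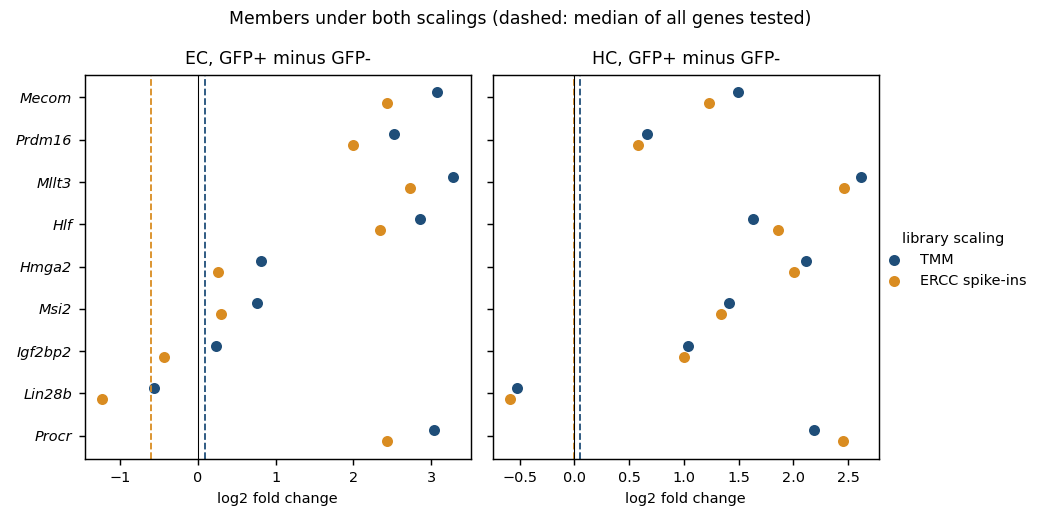
Log2 fold change of GFP+ over GFP- pools in ECs and HCs under TMM scaling (blue) and ERCC spike-in scaling (orange), with dashed lines at the median of all genes tested. In ECs the spike-in values lie lower for all 9 genes, with the median of all genes at -0.596, whereas in HCs both medians lie near 0.

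Markers of other cells also moved with the GFP sort of ECs. Sums of marker lists, here and below, are CPM of the library without TMM scaling. The endothelial list summed to 10545 to 13959 CPM in GFP+ and 6496 to 8662 CPM in GFP- EC pools, and 10 of its 12 genes were higher and 2 lower in GFP+ pools. The hematopoietic list summed to 300.2 to 624 CPM in GFP+ and 216 to 386 CPM in GFP- pools, with 4 of 11 genes tested higher and 1 lower. The mesenchymal list ranged from 25.6 to 1551 CPM in GFP+ and from 3.99 to 77.3 CPM in GFP- pools, with all 7 genes tested higher. Lum, Tbx18 and Tcf21 were at 0 at the median of both groups. The sympathetic list, which contains Gata3, summed to 353 to 907 CPM in GFP+ and 32.8 to 156.1 CPM in GFP- pools. Of its genes 4 of 6 tested were higher, and Phox2a, Th and Chrna3 were at a median of 0 in both. The epithelial and mesonephric list summed to 22.8 to 126.5 CPM in GFP+ and 0.349 to 9.78 CPM in GFP- pools, with 2 of 3 genes tested higher. Of its 8 genes 4, Pax2 and Pax8 among them, were at a median of 0 in both groups. The part of these cells in the differences of the 9 genes was not tested.

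In HCs, 6 of the 9 genes were higher in Gata3-GFP+ pools and none was lower, against 17.1% higher and 9.53% lower among 16200 genes tested. Mllt3, Hmga2 and Msi2 rose by 6.15-fold, 4.32-fold and 2.66-fold in nearly all GFP+ pools, and Igf2bp2 by 2.05-fold. Mecom and Procr passed the test as well, at low levels and with calls that hung on single pools. Hlf, Prdm16 and Lin28b did not pass.

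Mllt3 ranged from 0.741 to 25.1 CPM in GFP- HCs, with a median of 8.08, and from 2.11 to 190 CPM in GFP+ HCs, with a median of 47.3. Of 20 GFP+ pools, 16 lay above every GFP- pool, and the log2 fold change was 2.62 ± 0.36 (SE, n = 20 and 20, adjusted p = 2.19e-07, edgeR). Hmga2 ranged from 3.15 to 156.6 CPM in GFP- HCs, with a median of 44.2, and from 14.2 to 381 CPM in GFP+ HCs, with a median of 216. Its log2 fold change was 2.11 ± 0.33 (SE, adjusted p = 2.86e-06, edgeR), with 17 of 20 GFP+ pools above every GFP- pool. Msi2 had medians of 13.98 CPM in GFP- and 34.98 CPM in GFP+ HCs, again with 17 of 20 GFP+ pools above every GFP- pool and 1 below all of them, and a log2 fold change of 1.41 ± 0.18 (SE, adjusted p = 7.72e-08, edgeR). Igf2bp2 had medians of 16.5 and 35.8 CPM and a log2 fold change of 1.03 ± 0.24 (SE, adjusted p = 7.33e-04, edgeR), with 7 of 20 GFP+ pools above every GFP- pool. These 4 genes were called without any 1 of the 40 pools.

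A single GFP+ HC pool was the lowest for all 4 of these genes, with 2.11 CPM of Mllt3, 14.2 CPM of Hmga2, 8.44 CPM of Msi2 and 10.55 CPM of Igf2bp2. It also had the highest macrophage list of the GFP+ HC pools, 13496 CPM against a median of 6640 CPM. The GFP+ HC pool with the most Mllt3, 190 CPM, had the highest megakaryocyte list, 46941 CPM.

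Mecom in HCs was at 0.297 to 13.9 CPM in GFP- pools, with a median of 3.18, and at 0.864 to 61.5 CPM in GFP+ pools, with a median of 8.06. Only 6 of 20 GFP+ pools lay above every GFP- pool. The log2 fold change was 1.495 ± 0.44 (SE, adjusted p = 0.00625, edgeR). The gene stayed called in 34 of 40 fits that left out 1 pool, and without the GFP+ pool at 61.5 CPM the log2 fold change was 1.12 (adjusted p = 0.0292). The call was also lost with spike-in scaling (1.23, adjusted p = 0.0351), in the fit of all 8 populations (1.47, adjusted p = 0.0209) and with the study's scanpy test (1.43, adjusted p = 0.0123).

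Procr in HCs was mostly near the detection limit, with a median of 1.57 CPM in GFP- and 1.52 CPM in GFP+ pools. The highest GFP+ pool had 101.3 CPM and the next 19.7 CPM, whereas no GFP- pool exceeded 3.73 CPM, and 10 of 20 GFP+ pools lay above the GFP- median. The log2 fold change of 2.19 ± 0.64 (SE, adjusted p = 0.00547, edgeR) fell to 0.85 (adjusted p = 0.196) without the pool at 101.3 CPM. That pool also had the most Prdm16 of the GFP+ HC pools, 15.8 CPM, and an endothelial list of 663 CPM, the highest among them, against a median of 286 CPM. The call of Procr was absent with DESeq2's Wald test (0.87, adjusted p = 0.139) and the scanpy test (0.49, adjusted p = 0.549).

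Hlf in HCs had no count in 10 of 20 GFP+ and 7 of 20 GFP- pools, with highest values of 34.04 and 6.29 CPM and a log2 fold change of 1.63 ± 0.85 (SE, adjusted p = 0.132, edgeR). Prdm16 had medians of 4.03 CPM in GFP+ and 3.09 CPM in GFP- HCs and a log2 fold change of 0.66 ± 0.55 (SE, adjusted p = 0.363, edgeR). Lin28b had medians of 34.5 CPM in GFP+ and 49.9 CPM in GFP- HCs. Its log2 fold change of -0.52 ± 0.17 (SE, adjusted p = 0.0158, edgeR) did not pass the test, and it was called lower in 5 of 40 fits that left out 1 pool.

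**Figure D4:**
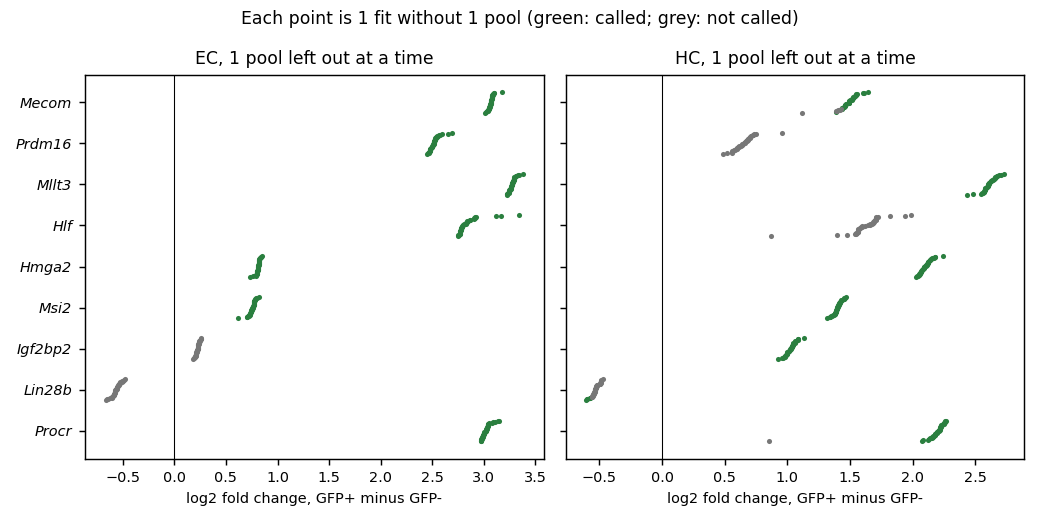
Log2 fold change of GFP+ over GFP- pools for the 9 genes when 1 pool is left out at a time, in 39 fits of ECs and 40 of HCs, with called fits in green and the others in grey. The EC values stay close together, while in HCs Procr has 1 fit at 0.85 and Mecom 1 at 1.12, both grey.

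The GFP sort of HCs went with large differences in other markers. All 7 megakaryocyte genes were higher in GFP+ HCs, with list sums of 1594 to 46941 CPM against 136.6 to 3741 CPM. The mesenchymal list, 10 of 12 genes higher, summed to 16.9 to 927 CPM in GFP+ and 3.80 to 164 CPM in GFP- pools. All 12 sympathetic genes, Gata3 included, were higher (22.4 to 2556 CPM against 3.78 to 32.2 CPM), with Phox2a at a median of 0 in both groups. The neural crest list had 5 of 6 genes tested higher (5.93 to 190 CPM against 0.291 to 15.7 CPM), with Foxd3 at a median of 0 in both. In the epithelial and mesonephric list all 5 genes tested were higher (1.82 to 134.5 CPM against 0.826 to 23.5 CPM), with Pax2 and Pax8 at a median of 0 in both. The endothelial list had 7 of 11 genes tested higher and 1 lower (168 to 663 CPM against 157.2 to 453 CPM). Of 12 macrophage genes 5 were lower and none was higher (1145 to 13496 CPM against 7624 to 13433 CPM). Of 12 hematopoietic genes 9 were lower and 2 higher (2913 to 4978 CPM against 4678 to 6487 CPM). In GFP- HCs the macrophage list had a median of 9843 CPM and the hematopoietic list one of 5600 CPM. In GFP+ HCs the medians were 8994 CPM for the megakaryocyte, 6640 CPM for the macrophage and 3694 CPM for the hematopoietic list. Hmga2, Mllt3, Igf2bp2 and Msi2 were all expressed in MCs and SNS, as given below. The part of such cells, or of macrophages and megakaryocytes, in the HC differences was not tested.

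Most of the 9 genes were lower in HCs than in ECs. Between GFP+ HCs and GFP+ ECs, 6 of 9 were lower and none higher, against 17.6% lower and 26.3% higher among 20080 genes in the fit of 8 populations. Mecom had a log2 fold change of -5.01 ± 0.56 (SE, adjusted p = 3.32e-14, edgeR), Procr one of -4.80 ± 0.54 (adjusted p = 4.86e-14) and Prdm16 one of -3.87 ± 0.48 (adjusted p = 2.03e-12). The value was -1.60 for Mllt3, -1.04 for Igf2bp2 and -0.77 for Hmga2, and with spike-in scaling, which moved the median of all genes from 0.147 to 0.833, it was -0.22 for Hmga2 (adjusted p = 0.446). Without the 12 E11.5 pools, which share this fit's estimate of spread, the same 6 genes were lower, and Lin28b was called higher at 0.82 (adjusted p = 0.00936), against 18.2% lower and 27.2% higher. Between GFP- HCs and GFP- ECs, 6 genes were lower as well, against 18.6% of all genes lower and 18.4% higher. These were Procr with -3.90, Mecom with -3.37, Hmga2 with -2.01, Prdm16 with -1.99, Igf2bp2 with -1.81 and Msi2 with -0.9996 on the log2 scale. Without the 12 pools, Mllt3 was also lower (-0.91, adjusted p = 0.00113) and Lin28b higher (0.81, adjusted p = 0.00977), against 19.5% lower and 18.9% higher. Hlf was not called in either comparison.

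The GFP differences of ECs and HCs were compared by an interaction term in the same fit. Hmga2 differed more in HCs than in ECs, by 1.24 ± 0.34 on the log2 scale (SE, adjusted p = 0.00247, edgeR), and so did Igf2bp2, by 0.77 ± 0.22 (SE, adjusted p = 0.00286). These were 2 of 9 genes, with 13.9% of all genes called in this direction and 8.13% in the other. Mecom (-1.64 ± 0.72, adjusted p = 0.0684) and Prdm16 (-1.87 ± 0.63, adjusted p = 0.0147) differed more in ECs without passing the test. Both passed without the 12 E11.5 pools, at -1.62 (adjusted p = 0.00169) and -1.86 (adjusted p = 0.00265), when 8.81% of all genes were called in this direction and 15.1% in the other. For Mllt3, called in both cell types, the difference between them was -0.71 ± 0.44 (SE, adjusted p = 0.224), and for Procr it was -0.90 ± 0.73 (SE, adjusted p = 0.365). With spike-in scaling the median interaction of all genes shifted from 0.113 to 0.768.

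The E11.5 populations were compared in the same way. With all passing pools, none of the 8 genes tested in MCs was called, against 2.21% of 16026 genes higher and 2.15% lower, while by unadjusted p under 0.05 3 were, against 22.5% of all genes in either direction. Without the 6 MC pools against their label, Prdm16 and Msi2 were higher and Hmga2 lower in GFP+ MCs, against 5.52% of 15226 genes higher and 4.89% lower. Prdm16 then ranged from 24.2 to 69.7 CPM in GFP+ MCs, with a median of 43.1, and from 5.73 to 50.3 CPM in GFP- MCs, with a median of 19.5. All 17 GFP+ pools lay above the GFP- median, and the log2 fold change was 0.98 ± 0.22 (SE, adjusted p = 0.00145, edgeR), compared with 0.99 ± 0.39 (adjusted p = 0.107) with all pools. Msi2 was at medians of 38.3 and 24.4 CPM, with a log2 fold change of 0.70 ± 0.16 (SE, adjusted p = 0.00213), compared with 0.53 (adjusted p = 0.0664) with all pools. Hmga2 was at 242 to 475 CPM in GFP+ and 445 to 773 CPM in GFP- MCs, with 16 of 17 GFP+ pools below every GFP- pool and a log2 fold change of -0.84 ± 0.08 (SE, adjusted p = 3.40e-09), compared with -0.46 ± 0.23 (adjusted p = 0.223) with all pools. Marker lists moved with the GFP sort of these MC pools too. The endothelial list summed to 107.7 to 213.9 CPM in GFP+ and 43.8 to 133.4 CPM in GFP- pools, with 2 of 7 genes tested higher and with Cdh5, Tie1 and Cldn5 at a median of 0 in both. The mesenchymal list summed to 3938 to 5858 CPM against 2996 to 5002 CPM, with 4 of 12 genes higher and 2 lower, and the sympathetic list, Gata3 included, to 64.7 to 181.3 CPM against 24.5 to 125.6 CPM, with 2 of 6 higher and Phox2a at a median of 0 in both. No gene of the other lists was called, and the part of these cells was not tested.

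In SNS, Hmga2 was the sole gene of 9 called, against 1.86% of 16143 genes lower and 2.01% higher. With all passing pools its log2 fold change was -1.001 ± 0.24 (SE, n = 18 and 19, adjusted p = 0.00603, edgeR). Without the 6 SNS pools against their label it ranged from 65.96 to 229.7 CPM in GFP+ and from 403 to 652 CPM in GFP- SNS. The log2 fold change was then -1.71 ± 0.13 (SE, n = 15 and 16, adjusted p = 4.78e-11, edgeR), against 5.48% of 15658 genes lower and 4.94% higher. Under TMM scaling the direction for Hmga2 was thus opposite to that in ECs and HCs, though its EC value was not called with spike-in scaling. Beside it, the mesenchymal list summed to 119.7 to 358 CPM in these GFP+ and 429 to 1010 CPM in these GFP- SNS pools, with 9 of 11 genes tested lower. The sympathetic list, Gata3 included, summed to 1227 to 4367 against 310 to 1112 CPM, with 10 of 12 genes higher. The neural crest list summed to 646 to 1433 against 1231 to 1697 CPM, with 3 of 8 lower. The epithelial and mesonephric list summed to 0 to 18.6 against 1.44 to 61.98 CPM, with 3 of 6 genes tested lower. The part of these differences was not tested. Mllt3 was at medians of 9.36 and 18.1 CPM in GFP+ and GFP- SNS without those pools, with a log2 fold change of -0.80 ± 0.23 (SE, adjusted p = 0.0143), and Msi2 at -0.31 ± 0.09 (adjusted p = 0.0204), neither called. Between SNS and MCs, no interaction passed in the main edgeR fit of all passing pools, against 4.45% of all genes called in each direction. Some alternative settings gave calls, as listed at the end. An adjusted p under 0.05 was reached by 4 of 9, against 15.1% of all genes. The one for Msi2 passed at -1.02 ± 0.26 (adjusted p = 0.00268) without the 12 pools, against 3.98% of all genes lower and 2.36% higher.

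Across the 8 populations, ordered by mean CPM without the 12 pools, the genes fell into different orders. ECs and HCs came from E10.5 and MCs and SNS from E11.5, so between these stage and cell type cannot be told apart. Mecom was highest in GFP+ ECs, with a mean of 393 CPM, above GFP+ MCs with 71.6 CPM (log2 fold change 2.42, adjusted p = 3.20e-11, edgeR). The steps between GFP+ MCs, GFP- MCs with 69.3 CPM and GFP- ECs with 45.6 CPM did not pass the test. Both SNS populations were lowest, below 3 CPM. Procr was highest in GFP+ ECs with a mean of 225 CPM, then GFP- ECs with 27.2 and GFP+ HCs with 8.09 CPM, each step passing the test, and the other 5 populations lay between 0.478 and 1.996 CPM without a step that passed. Mllt3 was highest in GFP+ ECs with 173 CPM and next in GFP- MCs with 75.8 CPM (1.17, adjusted p = 7.60e-05, edgeR). The steps between GFP- MCs, GFP+ MCs and GFP+ HCs did not pass. Prdm16 was highest in GFP+ ECs with 73.6 CPM, but the step to GFP+ MCs with 42.3 CPM did not pass (0.76, adjusted p = 0.0705). Hlf was below 5 CPM in every mean, and no step in its order passed.

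The other 4 genes did not have GFP+ ECs at the top. Hmga2 was highest in GFP- MCs with a mean of 588 CPM and GFP- SNS with 529 CPM, followed by GFP+ ECs with 381 CPM, and lowest in GFP- HCs with 52.2 CPM. Igf2bp2 was highest in the 4 E11.5 populations, from 103.8 CPM in GFP+ SNS to 127.5 CPM in GFP+ MCs, and Msi2 in GFP- SNS with 68.6 CPM, and both were lowest in GFP- HCs with 17.8 and 14.05 CPM. Lin28b was highest in GFP- HCs with 50.2 CPM and GFP+ HCs with 34.8 CPM and lowest in GFP- and GFP+ MCs with 6.64 and 4.21 CPM. The step from GFP+ ECs with 19.8 CPM to GFP- MCs was its 1 step that passed (1.57, adjusted p = 2.45e-05). With all passing pools, both MC populations still ranked next to GFP+ ECs for Mecom, Prdm16 and Mllt3, and the SNS means of Mecom rose to 14.1 and 16.8 CPM.

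Genes related to the 9 by function were counted from lists chosen with earlier results of these data known. Their counts stand beside the shares of all genes given above, 19.5% higher and 16.5% lower in ECs, 17.1% and 9.53% in HCs, and at most 2.21% in either direction in MCs and SNS with all pools. Of 36 other regulators of stem cells, 30 were tested in ECs, and 20 were higher and none lower in GFP+ pools, with a median log2 fold change of 1.29 against 0.0996 for all genes. The 3 with the largest differences were Nkx2-3, a homeobox gene (77.7 ± 22.1 CPM against 1.67 ± 3.49, SD, log2 fold change 5.72), Runx1, the master regulator of EHT (18.1 ± 23.1 against 2.10 ± 1.49 CPM, 3.07), and Angpt1, a ligand of the TIE2 receptor (15.6 ± 13.3 against 1.91 ± 3.47 CPM, 3.04). The filter on low counts also lets in genes with few counts in GFP- pools, in ECs and HCs alike. Such genes, as these 3 with means of 1.67 to 2.10 CPM in GFP- ECs, could hardly be called lower. In HCs 34 were tested, and 16 were higher and 3 lower, with a median of 1.12 against 0.0488 for all genes. Slamf1, which encodes the HSC marker CD150 (4.11), Cdkn1c, which encodes the cell cycle inhibitor p57 (4.11), and Hoxa10 (3.36) led in HCs. The 3 lower genes, named after their values were seen, were Myb (-1.88), Ikzf1 (-1.10) and Cd34 (-1.28), of which Ikzf1 (2.12) and Cd34 (1.23) were higher in GFP+ ECs and Myb had a value of 1.81 (adjusted p = 0.0417, edgeR). The study named several of this list, among them Runx1, Hoxa10, Meis1 and Cdkn1c, from these same pools, which is not independent evidence of their direction.

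In the let-7 and LIN28 axis, 7 of 17 genes tested were higher and 3 lower in GFP+ ECs (median 0.28), led by the AT-rich binding protein gene Arid3b (80.6 ± 24.2 against 13.3 ± 8.15 CPM, SD, log2 fold change 2.55), the imprinted RNA H19 (6255 ± 932 against 1202 ± 327 CPM, 2.35) and the growth factor gene Igf2 (7571 ± 1010.4 against 2146 ± 463 CPM, 1.79). In GFP+ HCs 4 were higher and 2 lower (median 0.18), led by Mycn (3.12), Igf2 (2.28) and H19 (2.27). Of 15 partners of MLLT3 in elongation complexes, 5 were higher and none lower in GFP+ ECs (median 0.23), with Aff1 (2.70), Aff4 (1.42) and Mllt6 (1.08) leading. In GFP+ HCs 2 were higher and 2 lower (median -0.04), and Aff1, higher in GFP+ ECs, was lower there (-0.83), while Aff3 (2.61) and Aff4 (1.10) were higher. Of 8 corepressors of MECOM and PRDM16, Setdb1 (-0.61) and Hdac1 (-0.25) were lower in GFP+ ECs and none was higher (median 0.14), and Hdac2 (0.66) and Ctbp1 (0.46) were higher in GFP+ HCs and none lower (median 0.03).

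The other genes of the protein C pathway mostly had values below 0 in ECs, where 1 of 7 tested was higher and 3 were lower in GFP+ pools (median -0.75). The lower ones were the thrombin receptor gene F2rl3 (12.8 ± 9.82 against 33.1 ± 13.1 CPM, SD, log2 fold change -1.41), the coagulation inhibitor gene Tfpi (96.4 ± 31.1 against 235 ± 33.6 CPM, -1.32) and Pros1, which encodes protein S (-0.75). In GFP+ HCs 4 of 7 were higher and none lower (median 1.71), led by the coagulation factor gene F5 (4.49) and the thrombin receptor genes F2rl3 (4.37) and F2r (3.92), of which F5 and F2rl3 are known in platelets. Among the paralogues of the 9 genes, 2 of 17 were higher and 2 lower in GFP+ ECs (median 0.08) and 3 of 18 higher and 2 lower in GFP+ HCs (median 0.02), counts near or below the shares of all genes. Tef, a PAR bZIP relative of Hlf, was higher in GFP+ ECs (2.02), as was Prdm11 (1.41), and Hmga1 was lower (40.6 ± 11.1 against 85.6 ± 20.4 CPM, SD, -1.11). Under TMM scaling Hmga1 thus moved against Hmga2, its relative, in ECs, whereas with spike-in scaling Hmga2 was not called there. In HCs, Igf2bp1 was lower in GFP+ pools (-0.36) while Igf2bp2 was higher.

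With all passing pools, few related genes were called in the E11.5 populations. In MCs, the largest list, the other stem cell regulators, had 0 of 25 higher and 1 lower, Hoxa7 (-0.91, and -0.94 without the 12 pools). Without the 12 pools, 4 of 24 were higher and 5 lower in MCs, against 5.52% and 4.89% of all genes. In SNS that list had 1 of 25 higher, Cdkn1c (1.17, and 1.25 without the 12 pools), and 1 lower, Rbpms (-1.07, and -1.14 without them). Without the 12 pools, 2 of 24 were higher and 4 lower in SNS, against 4.94% and 5.48% of all genes. Thbd, which encodes thrombomodulin, was higher in GFP+ SNS (47.02 ± 21.8 against 11.4 ± 8.89 CPM, SD, 2.04), also without the 12 pools (54.2 ± 15.4 against 9.01 ± 6.23 CPM, 2.57). In GFP+ MCs the thrombin receptor gene F2r was higher (1.04, and 1.07 without the 12 pools) and Hmga1 lower (-0.83, and -1.13 without them).

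The genes whose levels followed each of the 9 most closely were sought by Pearson correlation of log2(CPM + 1) over all passing pools, the 12 against their label included, among 16435 genes, with pools of 1 population sharing their cell type, so the values mainly describe differences between populations. For Mecom these were Igf2 (r = 0.92) and H19 (r = 0.89). For Procr they were AU021092 (r = 0.91) and Mmrn2, an endothelial matrix gene (r = 0.90), for Prdm16 Ltbp4 (r = 0.83) and Fn1 (r = 0.82), and for Mllt3 Pde3a (r = 0.84) and Pcsk5 (r = 0.81). Hmga2 was closest to Fbn2 (r = 0.87) and Mdk (r = 0.87), Igf2bp2 to Cnn3 and Grb10 (r = 0.89 for both), and Msi2 to Cxxc5 (r = 0.79) and Gm5864 (r = 0.73). Lin28b was closest to the glycolytic enzyme genes Gpi1 and Pgk1 (r = 0.73 for both). Hlf, sparse in most pools, was closest to Mt3 and Gcnt2, each with r = 0.48, which is no finding at such low counts. Without the 12 pools, the r of each of these 18 pairs moved by at most 0.0184.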

How the data were processed

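Smart-seq2 libraries of 20-cell pools were sequenced with ERCC spike-in RNAs. The deposited values are raw read counts per gene, which the authors made with HTSeq and neither normalized nor filtered. The submitters' processing notes name GSNAP, HTSeq 0.5.3p3 and mm10, whereas the study's methods name STAR with Ensembl release 81. Which aligner made the table, the strand setting and the overlap mode are not given in the sources used here. Between 4.62% and 19.8% of reads were left unassigned as ambiguous and 7.93% to 20.4% fell on no gene, and these rows stayed out of library sizes.

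Pools were kept with over 500000 counts on genes and spike-ins, over 20% of reads on genes, and under 20% mitochondrial and under 20% spike-in counts. This left out 7 of 160, namely 1 GFP+ EC, 3 GFP- MC, 2 GFP+ SNS and 1 GFP- SNS pool. No 2 pools were identical. Counts on genes ranged from 1400824 to 16004756 per passing pool, and genes at low levels rest on few counts per pool. Groups came from the column names, which match the labels of a population but of no single sample.

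Each GFP+ against GFP- comparison was fitted in edgeR 4.0.16 (R 4.3.3) with TMM scaling and the robust quasi-likelihood test, on genes that reached 10 counts in 5 or more pools. HC against EC contrasts, interactions and the 28 pairwise contrasts came from 1 fit of 8 populations. P-values were adjusted by Benjamini-Hochberg over all genes tested, and calls needed an adjusted p under 0.01, the study's limit, and a log2 fold change beyond 0.1. CPM of single genes are counts per 1000000 counts of TMM-scaled library size, whereas sums of marker lists use library sizes without TMM scaling. The fitting was tested on simulated data. The label of a pool was checked by the sum of marker lists. Alternatives were DESeq2 1.42.0 size factors and Wald test, spike-in size factors, other filters and thresholds, all 160 pools, other pools in the fit and the test of scanpy 1.11.5. Leaving out the 12 E11.5 pools (in the correlations too), or 1 EC or HC pool at a time, was chosen after seeing the data. Promoters were 250 bases upstream of RefSeq start sites (GRCm38.p6). Some marker genes and 1 sequence are not reported here.

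The 9 genes, the marker lists and the lists of related genes were chosen with earlier results of these data known. Named were the 9 genes, Gata3, up to 3 called genes of each related list with the largest change and a mean of at least 10 CPM, and the 2 genes most correlated with each of the 9.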

Additional observations from a re-analysis of the deposited data

Results flagged for a closer look

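The results given here are differences between cell types in how far GFP+ and GFP- pools differed, tested by interaction terms in edgeR's fit of 8 populations. Between HCs and ECs the term was 1.24 for Hmga2 and 0.77 for Igf2bp2 on the log2 scale, both larger in HCs. Without the 12 E11.5 pools whose markers go against their label these were 1.26 and 0.78, and 2 more genes passed, Mecom with -1.62 and Prdm16 with -1.86, both larger in ECs. Between SNS and MCs, Msi2 passed without those 12 pools with -1.02, being higher in GFP+ MCs and not called in SNS. In Hmga2 the scaling bears on the size of the difference, since spike-in scaling left its EC value at 0.26 and its HC value at 2.01.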

How the results depend on the processing

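In ECs and HCs the numbers of the 9 genes called stayed within 1.5 times under every alternative run, and leaving out 1 pool at a time gave 5226 to 5426 genes called in ECs and 4086 to 4478 in HCs. Of the values of single genes under alternatives, 279 kept their direction and side of the threshold, 9 passed it newly, 8 lost it and 12 changed sign, all but 1 of these in MCs or SNS and none past the threshold. With spike-in scaling Igf2bp2 in ECs was at -0.44, Mllt3 in MCs at 0.10, and Msi2 and Igf2bp2 in SNS at 0.044 and 0.175. With spike-in scaling and without the 12 pools, Mllt3 in MCs was at 0.055, and Mecom, Prdm16, Msi2 and Igf2bp2 in SNS at 0.13, 0.055, 0.13 and 0.27. The scanpy test gave 0.27 for Mllt3 and 0.35 for Procr in MCs, and DESeq2's Wald test 0.92 for Mecom in SNS.

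The E11.5 counts moved most. In MCs 698 genes were called, and 381 with spike-ins, 1130 in the fit of 8 populations, 1585 without the 12 pools and 1255 without them with spike-ins. Of the 9 genes 0 were called in MCs, 1 with DESeq2 size factors, DESeq2's Wald test or an adjusted p under 0.05, and 3 without the 12 pools under either scaling. In SNS 625 genes were called, and 1013 with spike-ins, 1631 without the 12 pools and 4460 without them with spike-ins, while the call of Hmga2 was lost with no filter on genes, leaving 0. For the difference between HCs and ECs 2 of 9 were called, 4 without the 12 pools and 1 at a log2 fold change beyond 1. For that between SNS and MCs 0 were called, 1 with DESeq2 size factors, with spike-ins, with the filter at 20 pools, with all 160 pools or without the 12 pools, 2 in the fit of the 4 populations of the stage and 4 at an adjusted p under 0.05. Spike-in scaling also changed the share of all calls that were higher, from 54.1% to 14.3% in ECs, from 50.7% to 72.4% in MCs and to 83.3% in SNS from 325 of 625. Between GFP+ HCs and GFP+ ECs it changed from 59.9% to 86.1%, and for the differences between cell types from 63.2% to 91.8% (HCs and ECs) and to 72.8% (SNS and MCs). The causes were not tested.

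No paired analysis was possible because the column names carry no replicate numbers. Hlf, Procr in HCs and Prdm16 in HCs lie near the detection limit, where few counts per pool set the precision.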
